A study of Mus musculus with 26 samples.

Results

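Claudin transcripts were examined in RNA of the mouse retina and optic nerve as a family of 7 genes, Cldn1, Cldn3, Cldn5, Cldn10, Cldn12, Cldn14 and Cldn19. They are the rows of the deposited count table, 7 of 54532, whose Ensembl gene identifiers carry these symbols; another 28 rows carry a symbol that begins with Cldn and were not members, among them the myelin claudin Cldn11. The 26 libraries came from untreated animals at day 0 and fall into 4 groups. They are 6 libraries of retinal RNA recovered by immunoprecipitation (IP) and enriched for the RNA of astrocytes, 7 IP libraries of the ONH (optic nerve head), the stretch in which axons exit the eye, 7 IP libraries of the ONP (the myelinated optic nerve proper), and 6 input libraries of retinal RNA that were not immunoprecipitated. The labels give neither genotype, strain, age nor the promoter that drove the tag for the IP, and nothing in them ties a library to its own animal; the p-values below therefore reflect spread among libraries, which may be technical.

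Claudins are small membrane proteins that assemble into tight junction strands where neighbouring cells meet, and the claudins a cell makes set which ions and solutes can pass between cells. Some, such as claudin 1, claudin 3 and claudin 5, mainly seal the gap, while claudin 10 forms channels for ions. The best known tight junctions around the retina and optic nerve are those of vessel endothelium, which form the inner blood-retina barrier, and of the retinal pigment epithelium, which form the outer one; oligodendrocytes build similar strands in myelin from claudin 11.

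The promoters of 5 start sites are shown because Cldn10, Cldn3 and Cldn19 were high in the same retina IP libraries while Cldn14 was nearly absent from all retinal libraries. Each window runs from 250 bases before to 50 bases after a RefSeq start (GRCm38.p6), 5′ to 3′, and capitals mark matches on either strand to a motif searched. Cldn10 has one start at chr14:118787621-118787920 and another at chr14:118854700-118854999, both on the plus strand. The Cldn3 window is chr5:134985964-134986263 (plus strand), the upstream Cldn19 window is chr4:119255191-119255490 (plus strand), and the most upstream Cldn14 window is chr16:94008788-94009087 (minus strand).
Cldn10 start 1: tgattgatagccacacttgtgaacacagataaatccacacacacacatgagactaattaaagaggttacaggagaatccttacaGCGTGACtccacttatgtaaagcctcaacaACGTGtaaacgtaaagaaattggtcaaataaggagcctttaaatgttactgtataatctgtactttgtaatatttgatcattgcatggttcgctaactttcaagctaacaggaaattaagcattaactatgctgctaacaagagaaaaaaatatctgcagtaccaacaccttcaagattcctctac
Cldn10 start 2: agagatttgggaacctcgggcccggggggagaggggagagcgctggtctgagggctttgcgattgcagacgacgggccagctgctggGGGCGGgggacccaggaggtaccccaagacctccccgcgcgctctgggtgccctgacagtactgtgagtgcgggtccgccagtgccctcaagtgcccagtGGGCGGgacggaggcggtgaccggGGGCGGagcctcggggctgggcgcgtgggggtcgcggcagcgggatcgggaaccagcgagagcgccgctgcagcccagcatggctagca
Cldn3: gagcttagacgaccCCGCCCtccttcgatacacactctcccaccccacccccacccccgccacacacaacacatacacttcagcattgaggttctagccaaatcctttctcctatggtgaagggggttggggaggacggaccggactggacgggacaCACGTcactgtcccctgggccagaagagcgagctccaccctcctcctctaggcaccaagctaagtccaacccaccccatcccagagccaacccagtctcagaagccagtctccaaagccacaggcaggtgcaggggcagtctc
Cldn19: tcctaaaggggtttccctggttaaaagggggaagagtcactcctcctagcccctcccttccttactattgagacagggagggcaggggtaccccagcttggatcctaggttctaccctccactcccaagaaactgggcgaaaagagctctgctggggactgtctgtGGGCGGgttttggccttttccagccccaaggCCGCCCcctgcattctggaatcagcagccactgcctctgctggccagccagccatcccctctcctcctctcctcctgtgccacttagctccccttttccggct
Cldn14: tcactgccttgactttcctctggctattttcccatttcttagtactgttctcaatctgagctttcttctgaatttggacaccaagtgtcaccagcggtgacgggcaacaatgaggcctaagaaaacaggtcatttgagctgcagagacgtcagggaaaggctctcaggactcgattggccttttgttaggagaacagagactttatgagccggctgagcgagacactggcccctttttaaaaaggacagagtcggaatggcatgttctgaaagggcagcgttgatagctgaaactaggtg

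The motifs were a paired-box core GCGTGAC, a SOX core ACAATGG, the NFI palindrome (TTGGC and GCCAA with 5 free bases between them), the GC box GGGCGG and the hypoxia core ACGTG; no marked match overlapped another. Of 32851 promoter windows of the same length, 2.09% held the paired-box core, 3.66% the SOX core, 0.037% the NFI palindrome, 35.7% the GC box and 19.6% the hypoxia core. The windows of the Cldn10 starts differed in composition. Start 1 was 36.0% G and C, with 1 paired-box core and 1 hypoxia core, whereas start 2 was 72.0% G and C, with 3 GC boxes and 27 CG pairs; the median window was 52.7% G and C with 7 CG pairs. The Cldn3 window held 1 GC box and 1 hypoxia core, the Cldn19 window held 2 GC boxes, and the Cldn14 window held none of the motifs. A match is a description of letters, and the counts are per gene, so they do not say which Cldn10 start was used.

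Depth per library was 14703195 to 24966236 counts for retina IP, 14812762 to 26407745 for ONH, 14051088 to 27431026 for ONP and 11164619 to 18417001 for retina input. Levels are given as CPM, counts scaled to the effective library size, and between genes as CPM per kb of exon. The 12 retinal libraries, ONH replicate 7 and ONP replicate 7 formed sequencing batch 2, and the other 12 optic nerve libraries formed batch 1. Each of the 12 batch 1 libraries held at least 702 counts of 4 Y-linked genes and each batch 2 library at most 1, so batch and the sex of the animals cannot be told apart. A panel of 10 astrocyte markers summed to 6163 to 30224 CPM in retina IP, 6320 to 30051 in ONH, 11567 to 36744 in ONP and 3737 to 6076 in retina input. All 10 had a positive log2 difference of retina IP over input (median 2.26), but none passed edgeR's test. ONH replicate 7 stood apart, with 41675 CPM of 10 rod markers against 37.2 to 691 in the other ONH libraries, and retina input replicate 2 stood apart with 15.2% of counts from mitochondrial genes, against 2.79% to 8.16% in the other inputs. In bulk RNA such as this, fewer cells of a type and less RNA per cell cannot be told apart.

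The mixture of claudins differed between retina and optic nerve, while ONH and ONP shared their leading member. In retina IP, Cldn10 was the leading member per kb of exon, with 68.7% ± 11.7 (SD, n = 6) of the summed level of the 7 genes, followed by Cldn12 with 15.6% ± 13.0 and Cldn3 with 11.4% ± 4.67. In ONH, Cldn5 led with 55.9% ± 18.8 (SD, n = 7), ahead of Cldn12 with 15.1% ± 10.7 and Cldn14 with 13.8% ± 8.05. In ONP, Cldn5 led with 53.9% ± 18.7 (SD, n = 7), ahead of Cldn14 with 24.1% ± 6.23 and Cldn12 with 16.4% ± 11.7. Retina input resembled retina IP in its leader, with Cldn10 at 51.7% ± 20.2 (SD, n = 6) and Cldn12 at 32.1% ± 19.3. The 7 genes together reached 190 ± 150 CPM per kb in retina IP, 49.8 ± 30.9 in ONH, 38.7 ± 13.5 in ONP and 71.7 ± 69.0 in retina input (SD, n = 6, 7, 7 and 6). Retina input replicate 2 alone held 211, and the other 5 inputs averaged 43.7 ± 9.97 (SD, n = 5), below the ONH mean.

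**Figure D1:**
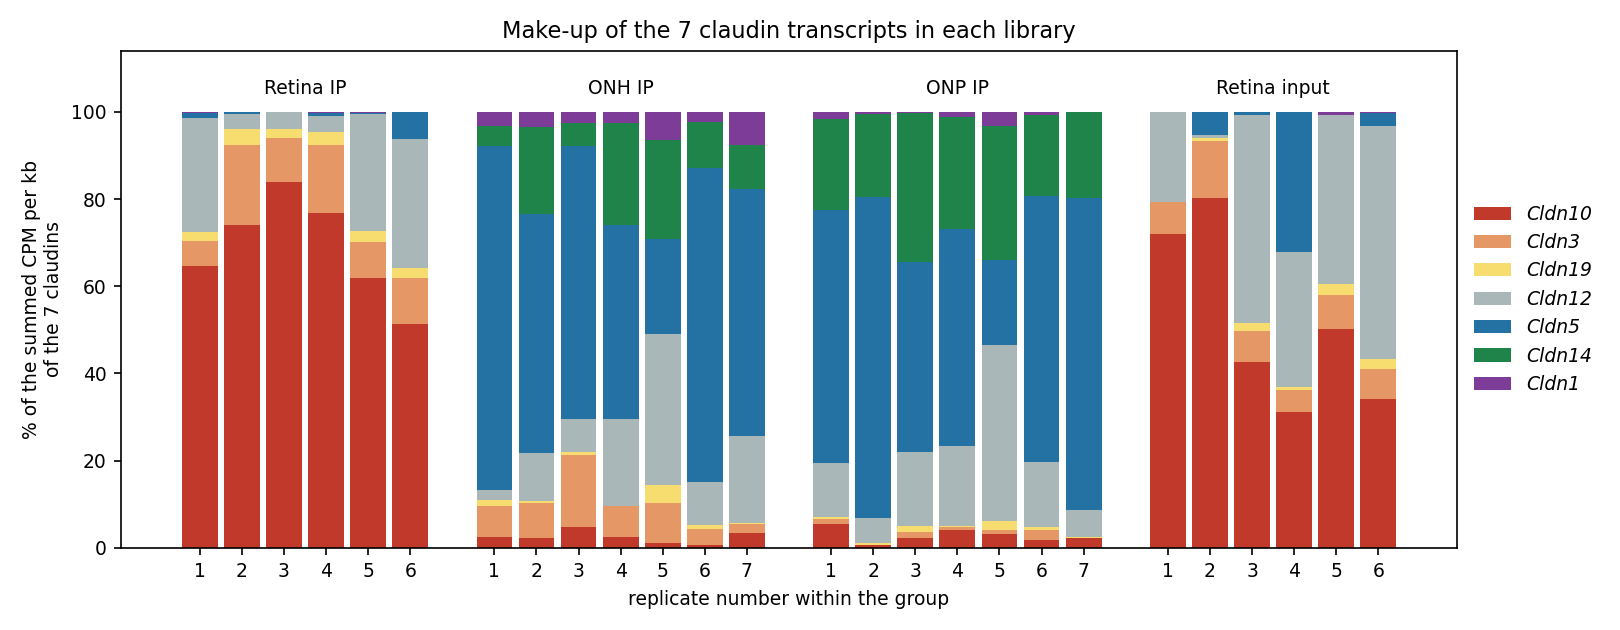
Each bar is 1 library, with its replicate number on the horizontal axis and the 4 groups side by side; the vertical axis gives the percentage that each claudin contributes to the summed CPM per kb of the 7 genes. Cldn10 fills 51.4% to 83.9% of the retina IP bars, and Cldn5 fills 21.8% to 78.8% of the ONH bars and 19.4% to 73.7% of the ONP bars.

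The order of the members within a group was only partly stable between libraries. In retina IP, the level of Cldn10 per kb was above that of Cldn3 in 6 of 6 libraries, whereas Cldn3 was above Cldn12 in 3 of 6. In ONH, Cldn5 was above Cldn12 in 6 of 7 libraries, and Cldn12 was above Cldn14 in 3 of 7. In ONP, Cldn5 was above Cldn14 and Cldn14 above Cldn12, each in 6 of 7 libraries. The ranges of neighbours in these orders overlapped in every group.

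Cldn10, which encodes a claudin that forms ion channels between cells and is best known from kidney tubules, lies at chr14:118787908-118875489. It had 87.6, 544, 765, 676, 82.1 and 83.1 CPM in the 6 retina IP libraries, and 69.6, 440, 40.8, 47.7, 47.6 and 43.3 CPM in the 6 retina inputs. Its level was 0.492 to 7.23 CPM in ONH (median 2.13) and 0.969 to 6.99 CPM in ONP (median 2.05). Retina IP replicates 2, 3 and 4 were high, and every optic nerve library, at most 7.23 CPM, lay below the lowest retinal one. Over all genes, retina IP libraries lay wholly above ONH for 8.77% and wholly above ONP for 11.8%.

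Cldn3, a sealing claudin of epithelia, lies at chr5:134986214-134987472. Its level was 3.77, 65.5, 44.1, 66.7, 5.48 and 8.29 CPM in retina IP, against 3.47, 34.7, 3.26, 3.69, 3.57 and 4.12 CPM in retina input. In the ONH it ran from 0.999 to 11.3 CPM with a median of 2.96, and in the ONP from 0 to 1.32 CPM with a median of 0.316. The same 3 retina IP libraries that were high in Cldn10 were high in Cldn3, and the ONP libraries lay below all retinal ones. Retina IP alone lay wholly above ONP for 11.8% of genes.

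Cldn19, known from kidney tubules and from the pigment epithelium of the eye and mutated in a human renal and ocular disease, lies at chr4:119255414-119262438. Values of 4.63, 45.0, 33.8, 44.3, 5.48 and 5.96 CPM were measured in retina IP, against 0.165, 5.44, 2.71, 1.94, 3.98 and 5.00 CPM in retina input. ONH libraries had 0 to 6.02 CPM with a median of 1.75, and ONP libraries 0.253 to 1.50 CPM with a median of 0.969. Retina IP replicates 2, 3 and 4 were again the high ones. An antisense gene, Gm12927, overlaps exons of Cldn19, and Wbscr25 overlaps those of Cldn3; without strand in the counting, reads of such pairs cannot be told apart, but the antisense genes held 50 and 16 counts over all libraries.

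Cldn12, a widely expressed claudin that lacks the tail by which most claudins bind scaffold proteins, lies at chr5:5489537-5514958. It was the steadiest member in retina IP, with 58.1, 42.8, 57.2, 54.7, 57.8 and 77.8 CPM, against 32.6, 6.26, 74.5, 77.4, 60.1 and 110 CPM in retina input. ONH libraries held 11.2 to 33.4 CPM (median 23.3) and ONP libraries 10.7 to 28.6 CPM (median 25.8). All retina IP libraries lay above all optic nerve libraries, while retina input replicate 2 lay below them all. Retina IP lay wholly above ONH for 8.77% of genes and wholly above ONP for 11.8%.

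Cldn5, the main claudin of brain and retinal vessel endothelium, lies at chr16:18776847-18778262. It had 0.855, 1.50, 0.0489, 3.29, 0.231 and 5.44 CPM in retina IP, and 0, 16.1, 0.369, 26.8, 0 and 2.06 CPM in retina input. In ONH it ranged from 4.92 to 121 CPM (median 31.5) and in ONP from 4.60 to 58.7 CPM (median 38.4). Retinal values were low except in input replicates 2 and 4, and the lowest library of each nerve region, replicate 5 in both, fell just below the highest retina IP library.

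Cldn14, known from the inner ear and kidney and a gene of inherited human deafness, lies at chr16:93919031-94008837. It had 2 counts in all 6 retina IP libraries together and 0 in the 6 inputs, which allows up to 3 counts over that group. ONH libraries held 10.7, 15.2, 6.04, 13.9, 7.66, 14.99 and 8.54 CPM, and ONP libraries 22.1, 22.8, 19.6, 19.3, 10.96, 17.6 and 17.5 CPM. Every optic nerve library lay above every retinal one. With retina IP libraries alone as the retinal side, all lay below all ONH libraries for 14.1% of genes and below all ONP libraries for 16.5%. ONP values were mostly above ONH values.

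Cldn1, a sealing claudin required for the skin barrier, lies at chr16:26356642-26371841. It had 0.427, 0.628, 0, 2.79, 0.519 and 0.389 CPM in retina IP, against 0.0826, 0, 0, 0, 1.46 and 0.567 CPM in retina input. Its highest levels were in ONH, with 17.1, 5.85, 6.76, 3.59, 4.99, 7.22 and 14.4 CPM, whereas ONP libraries had 3.85, 1.34, 0.278, 2.02, 2.58, 1.61 and 0 CPM. Every ONH library lay above every retinal library, and ONH and ONP overlapped in their ranges by a single pair of libraries. With retina IP libraries alone as the retinal side, all lay below all ONH libraries for 14.1% of genes.

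**Figure D2:**
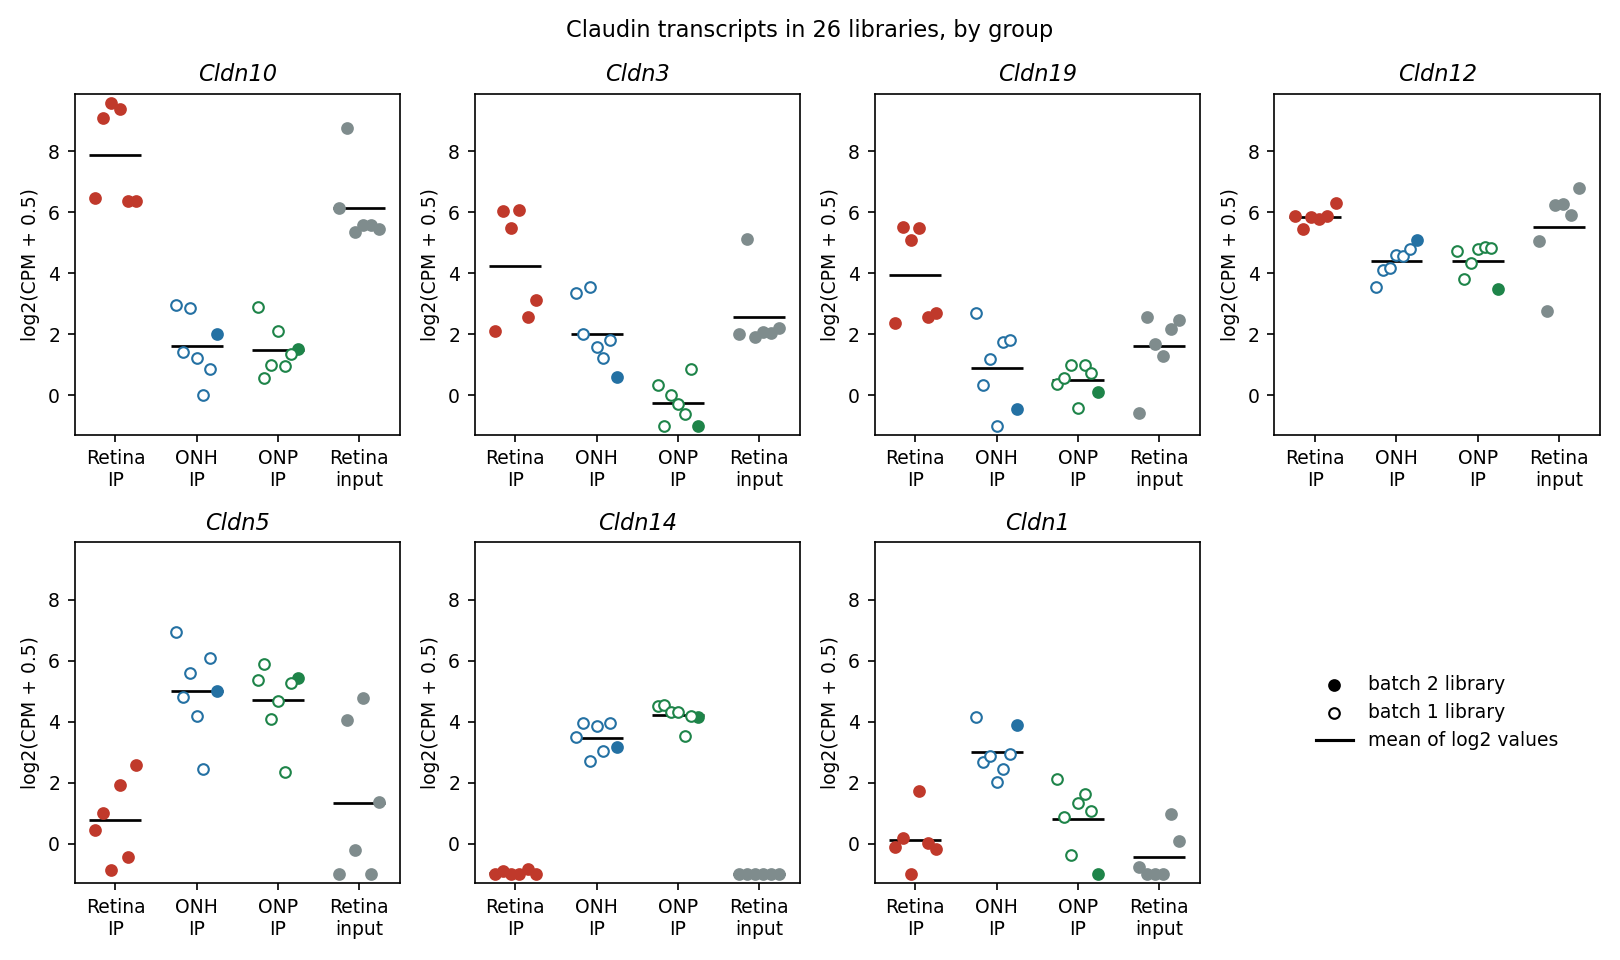
Each panel shows 1 claudin, each point 1 library (filled for batch 2, open for batch 1), and the bar the mean of log2(CPM + 0.5), which is the vertical axis; groups run from retina IP through ONH IP and ONP IP to retina input. Cldn10 and Cldn12 lie higher in every retina IP library than in any optic nerve library, and Cldn14 is at the floor in all retinal libraries. Over all genes, retina IP lay wholly above ONH for 8.77% and wholly above ONP for 11.8%.

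The first comparison asked which transcripts distinguished retinal IP RNA from retinal input. No claudin was called in it. By edgeR's quasi-likelihood test with Benjamini-Hochberg adjustment, the fitted difference of retina IP over input for Cldn19 was 2.98 ± 0.78 log2 units (SE; adjusted p = 0.0673), with 6 of 6 IP libraries above the input median. It was 2.02 ± 0.86 for Cldn3 (adjusted p = 0.183) and 1.83 ± 0.80 for Cldn10 (adjusted p = 0.192), again with 6 of 6 IP libraries above the input median. Cldn12 differed by 0.03 ± 0.46 (adjusted p = 0.977) and Cldn5 by −1.91 ± 1.36 (adjusted p = 0.452); Cldn1 and Cldn14 had too few counts for the fit.

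The background was the same: edgeR called 0% of 15181 genes in either direction, with 11.7% higher and 10.4% lower at an unadjusted p under 0.05, and DESeq2 called 6.38% higher and 7.27% lower. Cldn19 was called by DESeq2 (adjusted p = 0.00201), by edgeR with all 26 libraries in one fit (adjusted p = 0.0163) and by edgeR without retina IP replicate 1 (adjusted p = 0.0456). Without input replicate 2, the differences were 3.26 for Cldn3 and 3.00 for Cldn10, each at an adjusted p of 0.0769.

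Cldn10, Cldn3 and Cldn19 were high in the same retina IP libraries, and within that group their proportions spanned a narrower range than their levels. Cldn10 ranged from 82.1 to 765 CPM there. Per kb, Cldn3 was 8.86% to 24.8% of Cldn10 in the retina IP libraries and 10.3% to 19.6% in the inputs. Cldn19 was 2.69% to 5.03% of Cldn10 in retina IP and 0.144% to 7.01% in input. In the inputs this range was no narrower than that of Cldn19 itself, 0.165 to 5.44 CPM. In the optic nerve these proportions did not hold, since Cldn3 was 58.8% to 764% of Cldn10 in ONH and 0% to 132% in ONP. Over deviations from group means in all 26 libraries, r was 0.849 for Cldn3 with Cldn10, 0.685 for Cldn3 with Cldn19 and 0.437 for Cldn10 with Cldn19. These correlations are descriptions over libraries that share tissue and depth.

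The high libraries also differed in markers of several cell types. Astrocyte markers summed to 17466, 26524 and 30224 CPM in retina IP replicates 2, 3 and 4, against 6163, 6993 and 8814 CPM in replicates 1, 5 and 6. A panel of 8 Müller glia markers summed to 10945, 11946 and 12946 CPM in replicates 2, 3 and 4 and to 4491, 4088 and 7126 CPM in the others. Retina input replicate 2, also high in Cldn10 and Cldn3, had the highest Müller glia sum of the inputs at 6332 CPM, against 1767 to 5036 CPM. A panel of 11 pigment epithelium markers summed to 35.2 to 110 CPM in retina IP, 103 to 3179 in ONH, 4.89 to 50.7 in ONP and 37.1 to 440 in retina input, with the highest input value in replicate 2. Other marker sums also split between these libraries. Pericyte markers summed to 823, 742 and 889 CPM in retina IP replicates 2, 3 and 4 and to 149, 141 and 159 CPM in replicates 1, 5 and 6. Only 4 of the 8 pericyte markers had enough counts for the fit of retina IP against input, so that sum may rest on few genes. Ganglion cell markers ran the other way, with 2012, 1471 and 880 CPM in replicates 2, 3 and 4 and 5114, 4818 and 5099 CPM in the others. Mitochondrial genes took 1.03%, 2.11% and 2.23% of counts in replicates 2, 3 and 4 and 0.384%, 0.155% and 0.259% in the others. The part of these markers in the claudin values was not tested.

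**Figure D3:**
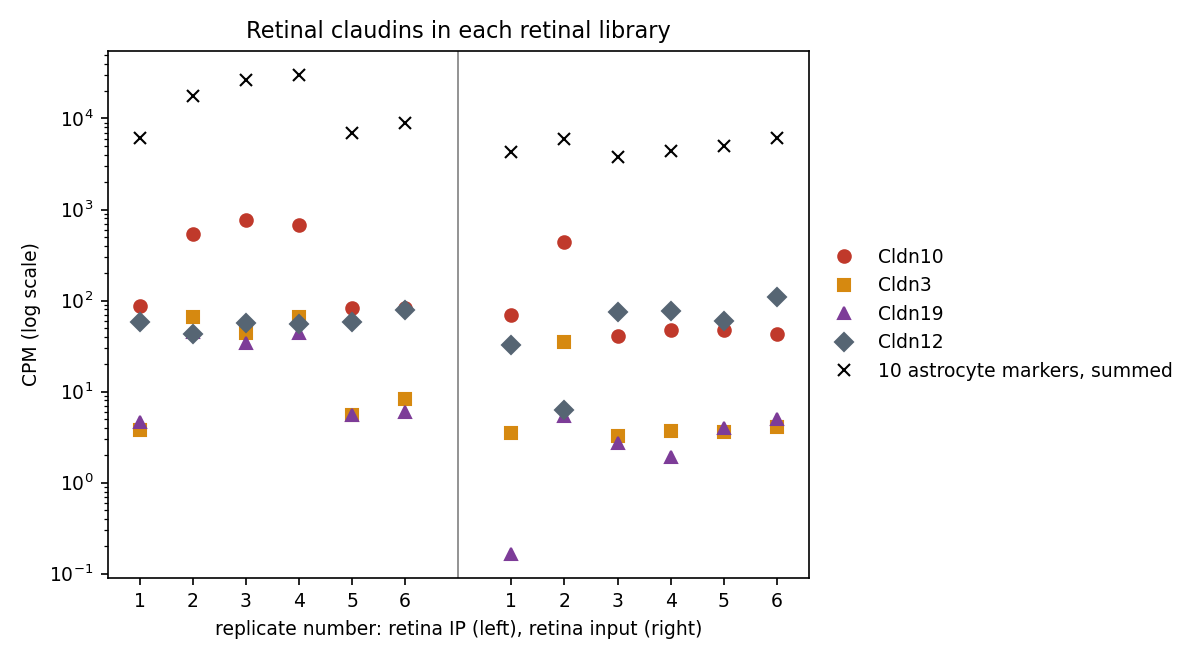
Each symbol is 1 gene (or the summed astrocyte markers) in 1 retinal library; the horizontal axis gives the replicate number, with retina IP on the left and retina input on the right, and the vertical axis is CPM on a log scale. Cldn10, Cldn3 and Cldn19 are high in IP replicates 2, 3 and 4, and Cldn10 and Cldn3 also in input replicate 2, where Cldn12 is low at 6.26 CPM.

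The next comparisons set retinal IP RNA against that of the 2 optic nerve regions, in a model of the 20 IP libraries with a batch term. Cldn10, Cldn3, Cldn19 and Cldn12 were higher in retina than in both nerve regions, and Cldn5 and Cldn14 were lower than in both. Against ONH, 4 of the 7 claudins were higher and 3 lower, beside 12.7% and 21.1% of the 16355 genes tested. Against ONP, 4 were higher and 2 lower, beside 12.9% and 19.9%. Both comparisons use the same retinal libraries.

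Cldn10 was higher than in ONH by 6.87 ± 1.42 log2 units (SE; adjusted p = 0.00106) and was 7.16 ± 1.44 higher than in ONP (adjusted p = 0.000806). Its retina IP libraries did not overlap either nerve group, which held for 8.77% of genes against ONH and 11.8% against ONP in that direction. Cldn3 was 5.27 ± 1.55 higher than in ONH (adjusted p = 0.0129) and 8.77 ± 1.77 higher than in ONP (adjusted p = 0.000814). Cldn19 was 5.34 ± 1.59 higher than in ONH (adjusted p = 0.0140) and 6.27 ± 1.6 higher than in ONP (adjusted p = 0.00531). For both genes the retina IP libraries overlapped ONH but not ONP. Cldn12 showed a smaller rise, 1.41 ± 0.41 over ONH (adjusted p = 0.0121) and 1.40 ± 0.45 over ONP (adjusted p = 0.0208), without overlap.

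Among the lower members, Cldn14 gave the widest gap. It had 2 counts in retina IP against 1488 in ONH, a count ratio of 702 for ONH over retina IP (95% counting interval 194 to 5802), with an adjusted p of 7.65e-10 in edgeR. Against the 2185 counts of ONP the ratio was 1170 (323 to 9663), with an adjusted p of 1.52e-10. Cldn5 was lower than in ONH by a log2 difference of −4.59 ± 1.04 (adjusted p = 0.00216) and than in ONP by −4.09 ± 0.98 (adjusted p = 0.00343). Cldn1 was lower than in ONH (−3.24 ± 1.02, adjusted p = 0.0184), whereas against ONP its difference was −0.85 ± 1.31 (adjusted p = 0.659).

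**Figure D4:**
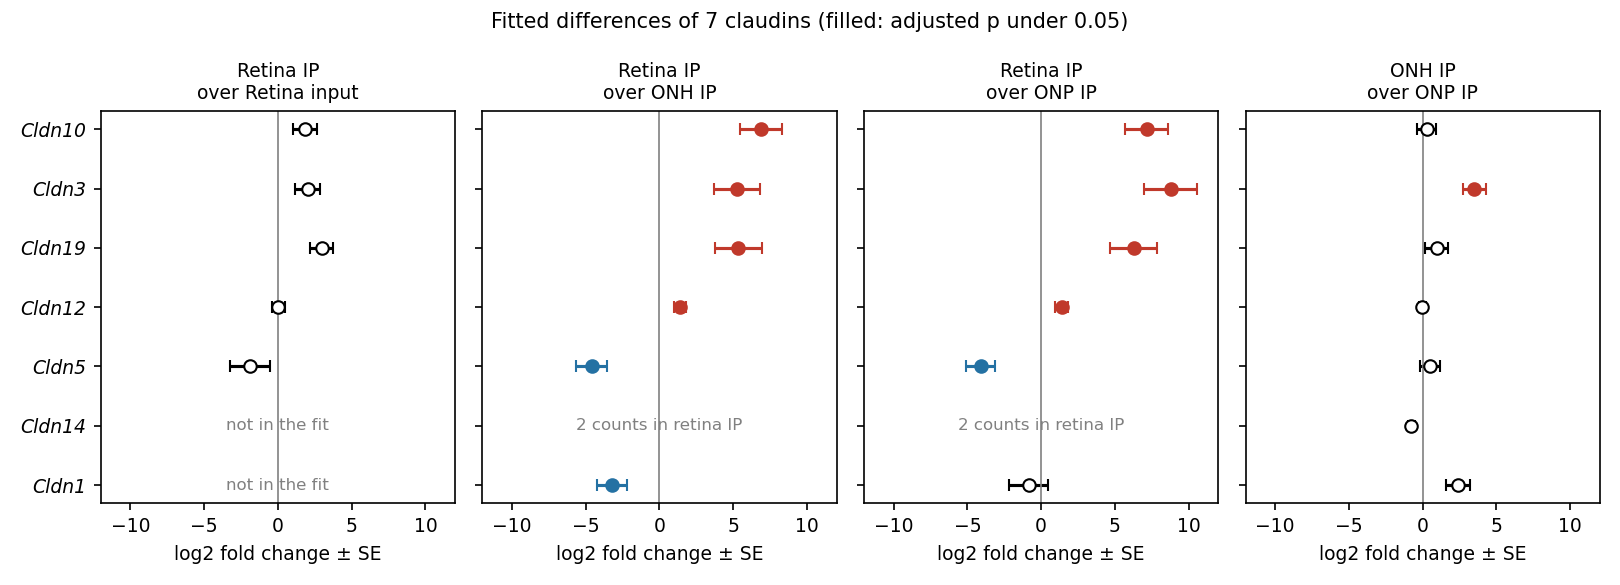
Points give the fitted log2 fold change, bars its standard error and filled points an adjusted p under 0.05, for each claudin in the 4 comparisons named above the panels. Cldn10, Cldn3, Cldn19 and Cldn12 lie right of 0 against both nerve regions, Cldn14 is given as text where retina IP held 2 counts, and Cldn3 is the filled point of ONH over ONP.

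These regional differences rest on 1 library per nerve region for the batch term. For ONH it was replicate 7, with 41675 CPM of 10 rod markers against 37.2 to 691 in the other ONH libraries. Retina IP held 570 to 2348 CPM of these markers. All 10 were nevertheless called lower in retina IP than in ONH (median log2 difference −4.45), beside 21.1% of all genes. The part of that library's rod RNA in the claudin differences was not tested. Within batch 2, where each nerve region had 1 library that is assumed to vary like the retinal ones, the differences from ONH were 6.94 for Cldn10, 5.21 for Cldn3, 6.84 for Cldn19, 0.97 for Cldn12, −3.89 for Cldn5 and −3.97 for Cldn1. Their adjusted p lay between 0.130 and 0.245, while Cldn14 was called (adjusted p = 0.00252). Within batch 2 the differences from ONP were 7.55 for Cldn10, 5.57 for Cldn19, 2.66 for Cldn12 and −4.27 for Cldn5, with Cldn12 (adjusted p = 0.0104) and Cldn14 (adjusted p = 0.00139) called. ONP replicate 7, the ONP library of batch 2, had 0 counts of Cldn3 and Cldn1, so no fold is given for them (adjusted p = 0.0889 and 0.261). With no batch term, the differences from ONH were 2.81 for Cldn3 and 3.51 for Cldn19, and those from ONP were 6.24 and 4.59; all 4 were called.

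Leaving out a bridging library ended some calls and moved several values. Without ONH replicate 7, the differences from ONH were 8.90 for Cldn3 and 4.16 for Cldn19, neither of which was called (adjusted p = 0.0934 and 0.146), 7.08 for Cldn10 and 2.74 for Cldn12. Cldn1 then turned to 5.02 against ONH (adjusted p = 0.309). ONP replicate 7 was the bridging library left in that fit, and with its 0 counts of Cldn3 and Cldn1 the values of these genes depend on the prior count. Against ONP, Cldn19 was 5.35 and not called (adjusted p = 0.0618), and Cldn12 was 2.47. Without ONP replicate 7, Cldn3 (5.01) and Cldn12 (0.80) were not called against ONH, and Cldn5 (−3.43) and Cldn12 (0.54) were not called against ONP, while Cldn19 was 6.64 against ONH and 7.83 against ONP. With only the retinal and ONH libraries in the fit, Cldn10 (6.79), Cldn3 (5.06), Cldn19 (6.69) and Cldn12 (0.85) were not called, at adjusted p of 0.0502, 0.116, 0.102 and 0.223. With all 26 libraries in one fit, Cldn1 and Cldn12 were not called against ONH, nor Cldn12 against ONP. Cldn14 was called lower than both nerve regions in all 28 alternatives.

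Cldn5 was set beside other vessel transcripts. Of 15 endothelial markers, 1 was higher and 9 were lower in retina IP than in ONH, and 1 was higher and 7 lower than in ONP, with median log2 differences of −2.85 and −2.25; over all genes 12.7% were higher and 21.1% lower than in ONH, and 12.9% and 19.9% than in ONP. Their summed level was 291 to 958 CPM in retina IP, 253 to 537 in ONH, 308 to 556 in ONP and 134 to 452 in retina input. Slc2a1, the glucose transporter of barrier endothelium, is also made by other cells. It gave 49.4% to 93.7% of that sum in retina IP and 31.4% to 59.8% in input. Its share was 33.6% to 62.4% in ONH and 46.0% to 72.6% in ONP. Kdr averaged 96.2 CPM in retina IP, 24.7 in ONH, 8.99 in ONP and 65.5 in retina input. Pecam1 averaged 0.745, 8.58, 9.17 and 1.57 CPM in the same order. Cdh5, the cadherin that defines endothelium, averaged 0.0524 CPM in retina IP, 2.01 in ONH, 1.51 in ONP and 0.549 in retina input.

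The ratio of Cldn5 to summed endothelial markers was tested within a batch, in 2 pairs of groups, and passed in neither. Its median was 0.230% in retina IP and 0.329% in retina input, with a difference in mean log2 ratio of −1.75 (two-sided exact permutation test, p = 0.169, n = 6 and 6; the smallest p possible is 0.00216). Within batch 1 its median was 10.01% in ONH and 6.48% in ONP, with a difference of 0.51 (two-sided exact permutation test, p = 0.457, n = 6 and 6). Both tests treated libraries as unpaired, although same-numbered ONH and ONP libraries deviated together, and no paired test of the ratio was run. Between retina IP and the nerve regions, which differ in batch, the ratio was not tested. It was 0.00576% to 0.961% in retina IP. The batch 1 libraries held 1.94% to 22.6% in ONH and 1.36% to 13.3% in ONP. Slc2a1 and Kdr made up most of the mean sum in retina IP, retina input and ONP, so the ratio in these groups is no measure of Cldn5 per endothelial RNA. They averaged 125 and 65.5 CPM of a mean sum of 269 in retina input, and 227 and 8.99 of 405 in ONP. In ONH they averaged 169 and 24.7 CPM of 393. Both tests share this limit. The part of vessel RNA in the regional difference of Cldn5 was not tested.

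Cldn14 moved with oligodendrocyte transcripts between regions. All 10 oligodendrocyte markers tested, the myelin claudin Cldn11 among them, were lower in retina IP than in either nerve region. Their median log2 differences were −9.34 against ONH and −10.41 against ONP. They summed to 52.0 to 162 CPM in retina IP, 28165 to 74065 CPM in ONH, 36839 to 126226 CPM in ONP and 20.6 to 91.7 CPM in retina input. Myelin basic protein (Mbp) averaged 27.9 CPM in retina IP, 22348 in ONH, 42011 in ONP and 25.2 in retina input. Other marker panels also differed between regions. Of 8 microglia markers, 7 were lower in retina IP than in ONH and 8 lower than in ONP, with sums of 54.0 to 143 CPM in retina IP, 214 to 1990 in ONH, 273 to 2942 in ONP and 115 to 992 in retina input. Of 8 pericyte markers, 6 were lower and 1 higher in retina IP than in each nerve region, although their sums overlapped, at 141 to 889 CPM in retina IP, 289 to 1307 in ONH, 310 to 720 in ONP and 61.2 to 328 in retina input. Ganglion cell markers went with the higher claudins: of 10, 8 were higher in retina IP than in ONH and 10 higher than in ONP, with sums of 880 to 5114 CPM in retina IP, 35.3 to 285 in ONH, 14.1 to 40.4 in ONP and 3747 to 8974 in retina input. Of 8 Müller glia markers, 3 were higher and 2 lower than in ONH, and 4 were higher and 1 lower than in ONP. Over all genes 12.7% were higher and 21.1% lower than in ONH, and 12.9% and 19.9% than in ONP. The lower Müller glia calls lay near or below that share. The part of these cells in the values of Cldn14 and the other claudins was not tested.

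The last comparison asked how IP RNA of the ONH differs from that of the ONP. Cldn3 was higher in ONH than in ONP by 3.50 ± 0.80 log2 units (SE; edgeR, adjusted p = 0.0121), with 7 of 7 ONH libraries above the ONP median. It was the only one of the 7 claudins called, 1 higher and 0 lower, beside 4.43% and 3.04% of all genes, and it was called in all 28 alternatives. The difference of Cldn1 was 2.39 (adjusted p = 0.0695), again with 7 of 7 libraries above the ONP median, and Cldn14 differed by −0.77 (adjusted p = 0.0813), with 0 of 7 above it. The differences of Cldn5, Cldn10, Cldn12 and Cldn19 were 0.50, 0.29, −0.02 and 0.94, with adjusted p between 0.488 and 0.979.

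With the replicate number as a block, Cldn1 was also called higher in ONH (2.48, adjusted p = 0.0226) and Cldn14 lower (−0.79, adjusted p = 0.0127), beside 10% higher and 11.1% lower among 14799 genes. DESeq2 also called Cldn1 (adjusted p = 0.0130) and Cldn14 (adjusted p = 0.0248), beside 7.03% of genes higher and 5.45% lower. Within batch 1, Cldn3 was 3.39 higher (adjusted p = 0.00905) and Cldn1 1.94 higher (adjusted p = 0.0198), and Cldn14 differed by −0.73 (adjusted p = 0.0589).

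Markers of several other cell types were higher in ONH too. Of 11 pigment epithelium markers, 10 were higher in ONH than in ONP, Tyr being at 0 in all ONP libraries, and 10 of 10 rod markers were higher. Müller glia markers were higher in ONH in 4 of 8 and lower in none, with sums of 3126 to 5262 CPM in ONH and 1944 to 4044 in ONP. Ganglion cell markers were higher in 3 of 10, and all 10 had a positive difference. Of 6 epithelial markers tested, 2 were higher and none was lower, beside 4.43% and 3.04% of all genes; the sum of that panel was 12.7 to 208 CPM in ONH and 4.62 to 47.9 CPM in ONP. In the batch 1 ONH libraries, replicates 1 to 6, Cldn3 was 9.64, 3.51, 11.3, 2.49, 1.83 and 2.96 CPM. Pigment epithelium markers in the same order summed to 946, 530, 1065, 313, 103 and 230 CPM. Epithelial markers summed to 62.1, 45.8, 51.6, 23.5, 12.7 and 27.7 CPM. Sums of meningeal fibroblast markers were 1051, 886, 984, 501, 487 and 846 CPM. Müller glia sums were 5262, 4285, 4189, 4272, 4767 and 4800 CPM, and rod sums 515, 77.7, 183, 489, 37.2 and 691 CPM. Replicate 7, the batch 2 library that stood apart in rod markers, had 3179 CPM of pigment epithelium markers and 0.999 CPM of Cldn3. That library also held 208 CPM of epithelial and 453 CPM of meningeal fibroblast markers. A panel of 8 meningeal fibroblast markers summed to 1.96 to 21.2 CPM in retina IP, 453 to 1051 in ONH, 145 to 1175 in ONP and 1.21 to 13.1 in retina input; 7 were tested, and 0 were called in ONH against ONP while all 7 were lower in retina IP than in either. The part of these tissues in the Cldn3 and Cldn1 values was not tested.

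The rest of the claudin family was mostly at or near 0. Of 16 other numbered claudins looked up among the 28 remaining Cldn rows, 12 were not kept for levels, none with more than 31 counts in a library, and 2 of them had 0 counts. Cldn11, the claudin of myelin, averaged 0.360 ± 0.433 CPM in retina IP (SD, n = 6), 136.5 ± 60.6 in ONH and 325.7 ± 161.9 in ONP (SD, n = 7 each). It was lower in retina IP by −9.31 log2 units against ONH (adjusted p = 2.29e-08) and −10.52 against ONP (adjusted p = 4.13e-09). Cldn2, a pore-forming claudin of leaky epithelia, was lower in retina IP too, with 0 to 0.314 CPM there, 0 to 5.81 in ONH and 0 to 2.16 in ONP.

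Among the other membrane proteins of tight junctions, no member was higher in retina and 5 of 11 tested were lower than in ONH, and likewise 5 of 11 than in ONP, beside 21.1% and 19.9% of all genes lower and 12.7% and 12.9% higher. The median differences were −1.61 and −1.22, beside −0.13 and −0.10 over all genes. Ocln (occludin) averaged 0.384 ± 0.638 CPM in retina IP, 6.06 ± 2.74 in ONH and 8.37 ± 3.56 in ONP (SD, n = 6, 7 and 7), and was lower in retina by −3.92 against ONH (adjusted p = 0.00390) and −4.39 against ONP (adjusted p = 0.00149). Esam, an adhesion molecule of endothelium, was lower than in ONH by −3.19 (adjusted p = 0.00361) and than in ONP by −2.89 (adjusted p = 0.00728). Ildr1, a protein of tricellular junctions, was at 0 to 0.0648 CPM in retina IP, 0.0703 to 1.06 in ONH and 0 to 5.00 in ONP, with adjusted p of 0.00782 and 0.000982. Marveld3, a relative of occludin, was called lower than in ONH (−4.10, adjusted p = 0.00386), but ONH replicate 7 alone held 13.2 CPM, the other ONH libraries 0 to 0.509 and retina IP 0 to 1.69.

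**Figure D5:**
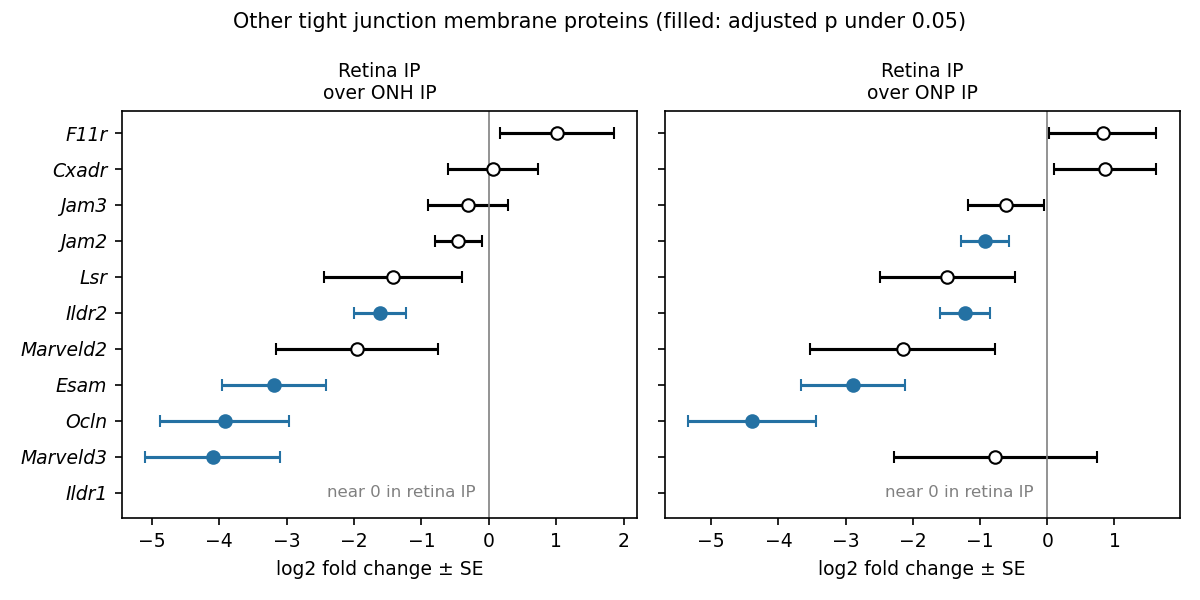
Points give the log2 fold change of retina IP over ONH IP (left) and over ONP IP (right) for the tight junction membrane proteins tested, bars the standard error and filled points an adjusted p under 0.05. The filled points, among them Ocln at −3.92 and −4.39, all lie left of 0, and Ildr1 is given as text because retina IP was near 0.

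Scaffold and polarity genes, which anchor the strands and set the apical side of a cell, included calls in both directions. Of 29 tested, against ONH 3 were higher in retina and 9 lower, and against ONP 5 were higher and 9 lower, with medians of −0.07 and −0.51. Over all genes 12.7% were higher and 21.1% lower than in ONH, and 12.9% and 19.9% than in ONP, so the higher calls of the list lay close to the share of all genes. Patj, a scaffold of the Crumbs complex, was higher by 2.64 than in ONH (adjusted p = 0.000648) and by 2.99 than in ONP (adjusted p = 0.000308). Cgnl1 (paracingulin) was higher by 1.79 and 2.89 (adjusted p = 0.0179 and 0.000974), and Prkci, an atypical protein kinase C, by 1.21 than in ONH (adjusted p = 0.00228) and by 1.19 than in ONP (adjusted p = 0.00281). Crb1, a polarity protein of retinal glia and photoreceptors, was higher by 3.59 than in ONP (adjusted p = 0.0148), with 64.8 to 176 CPM in retina IP and 0.111 to 2.23 in ONP. Against ONH its difference was 0.53 (adjusted p = 0.644). ONH replicate 7, which enters the batch term of both values, held 136 CPM.

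The lower members included Ybx3, a transcription factor that binds the scaffold ZO-1, with log2 differences of −4.02 and −3.43 (adjusted p = 2.05e-06 and 1.67e-05). The replicate 7 libraries of ONH and ONP, which enter the batch term, held 80.98 and 35.4 CPM of Ybx3. The other ONH libraries held 11.1 to 22.7 CPM, the other ONP libraries 7.26 to 20.5 CPM and retina IP at most 6.6 CPM. Magi2, another scaffold, was lower than in ONH by −1.85 (adjusted p = 1.09e-05) and than in ONP by −1.86 (adjusted p = 5.06e-06). Arhgef2, an exchange factor held at junctions, was lower than in ONH by −1.52 (adjusted p = 0.00331) and than in ONP by −2.19 (adjusted p = 9.43e-05). Between the nerve regions, Cgnl1 (1.10, adjusted p = 0.0397) and Crb1 (3.07, adjusted p = 0.00710) were higher in ONH, where replicate 7 had 136 CPM of Crb1 and the other ONH libraries 0.211 to 8.70. In retina IP against input, none of the 3 lists had a call by edgeR.

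Each claudin had a different set of most similar transcripts among 9556 genes with a mean of at least 10 CPM, by Pearson's r of log2 CPM over the 26 libraries. The nearest to Cldn10 were Fxyd6 (r = 0.977, and 0.833 within groups), Lrrtm3, Kcnip1, Pax8 and Cd36. Cldn3 was nearest to Cnmd (0.948, 0.848 within groups), Spag5, Pdlim3, Hsd17b2 and Clec18a, and Cldn19 to Smpdl3b (0.930, 0.829), Oxa1l, Crlf3, Ano1 and Prss35. Cldn12 was nearest to Sec23a (0.922, 0.869), Itfg2, Cry1, Wdr47 and Plekhb2. Cldn5 was nearest to Ly6c1 (0.981, 0.966), Ly6a, Mgp, Slco1a4 and Cd34; Cldn14 to Galnt6 (0.998, 0.882), Cyp2j12, Gjc3, Nipal4 and Gjb1; and Cldn1 to Col8a1 (0.868, 0.559), Esm1, Angptl2, Fancc and Wnt6. For Cldn1, r within groups was 0.074 with Esm1, 0.371 with Angptl2, 0.245 with Fancc and 0.341 with Wnt6. All libraries enter these values and share their depth and tissue, so the coefficients describe likeness only.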

How the data were processed

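Poly(A) RNA of 26 libraries was prepared with a Smart-Seq HT kit for very small inputs, per the labels' protocols. Reads were quantified with Salmon 1.6.0 and the build was mm10, per the submitters' processing notes; the role of strand in the quantification is not given in the sources used here. The authors deposited estimated counts per gene as whole numbers, and 0 columns were without a sample. Symbols from GENCODE M21 matched 54409 of 54532 rows, and 22279 rows were 0 in every library. Coordinates and exon lengths are those of GENCODE M21 on GRCm38 (mm10).

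Groups and batch came from the labels. The members and gene lists were chosen with earlier results of these data known, and named list genes are the called members with the largest changes, up to 3 a direction; 1 gene this rule names is not reported here. The quasi-likelihood F test of edgeR 4.0.16 (R 4.3.3) was used with TMM scaling, after filterByExpr at 10 counts per library and 15 in total, with p adjusted over all genes by Benjamini-Hochberg and called under 0.05; the tests were also tested on simulated data. The 12 retinal libraries were fitted without covariates and the 20 IP libraries with group and batch. CPM used TMM sizes over the 17173 genes kept. Likeness used log2(CPM + 0.5). Ratios with 2 counts carry a Poisson counting interval that covers counting error only. Exact permutation tests used scipy 1.17.1. DESeq2 1.42.0 was one alternative; others were edgeR with RLE scaling or without the filter, other sample sets, a replicate block and the omission of each library. Libraries of ONH and ONP with the same number deviated together, with a correlation of 0.106 to 0.508 in 7 pairs, so blocked values stand beside that comparison where they change a call.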

Additional observations from a re-analysis of the deposited data

Results flagged for a closer look

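Of 27 sets of libraries tested for 1 library far from the rest, 3 held such a library. The nominal rate of the rule is about 1 in 20, which was not measured on values such as these. The sets are not independent, since Cldn3 and Cldn10 share libraries and correlate within groups (r = 0.849). Retina input replicate 2 had 34.7 CPM of Cldn3, against 4.12 CPM in the next highest input, and 439.8 CPM of Cldn10, against 69.6 CPM in the next. The same library had 15.2% mitochondrial counts and 440 CPM of pigment epithelium markers. It also had the highest input sums of microglia (992 CPM), ganglion cell (8974 CPM) and epithelial markers (30.5 CPM). Its astrocyte, rod, pericyte and endothelial sums were not the highest of the inputs. The part of these features in its claudin levels was not tested. Retina IP replicate 4 had 2.79 CPM of Cldn1, against 0.628 CPM in the next highest retina IP library.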

How the results depend on the processing

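Number of claudins called and directions depended on the processing as follows. In retina IP against input, 1 claudin was called higher with DESeq2 and with all 26 libraries in one fit, and leaving out a library gave 0 to 1. Against ONH, 0 were called higher with only the 2 groups compared and in batch 2 only, 1 was called lower in batch 2 only, and leaving out a library gave 2 to 4 higher. Against ONP, 1 higher and 1 lower were called in batch 2 only, and leaving out a library gave 1 to 2 lower. In ONH against ONP, 2 were called higher and 1 lower with DESeq2, with only the 2 groups compared and with the replicate block, 2 were called higher in batch 1 only, and leaving out a library gave 1 to 2 higher. The difference of Cldn12 between retina IP and input changed sign to −0.022 with RLE size factors, −0.021 with DESeq2, −0.054 with all 26 libraries in one fit and −0.41 without input replicates 1 and 2, an alternative chosen after seeing the data; leaving out a library gave −0.25 to 0.30. Cldn1 turned against ONH when libraries were left out (−4.19 to 5.02) and against ONP with only the 2 groups compared (6.97), in batch 2 only (7.12) and when libraries were left out (−2.22 to 6.97). In ONH against ONP, leaving out a library gave −0.025 to 0.74 for Cldn10 and −0.27 to 0.12 for Cldn12. ONP replicate 7 had 0 counts of Cldn1, so the positive values depend on the prior count. With the replicate block and no batch term, Cldn3 was 2.47 against ONH. The causes of these changes were not tested, and some of these fits hold fewer libraries. For retina IP and input, same-numbered libraries correlated from −0.136 to 0.269, 5 of 6 best with their own number, and the replicate block again called 0 of 15181 genes; for Cldn5 it gave −0.34 (adjusted p = 0.929). Over all genes, retina IP against input had 0 calls, but 1419 higher and 1452 lower with all 26 libraries in one fit, 969 and 1103 with DESeq2, 152 and 41 without the filter, 341 and 40 without retina IP replicate 1, 226 and 20 without IP replicate 5, and 0 and 1 without input replicate 2. Against ONH the calls were 2080 and 3452, with 121 and 697 in batch 2 only, 437 and 1632 with only the 2 groups, 1242 and 2354 with all 26 libraries, 3871 and 4594 with no batch term, 4601 and 4853 with the replicate block and no batch term, and 722 and 2262 without ONP replicate 7. Against ONP they were 2116 and 3255, with 783 and 907 in batch 2 only, 4225 and 4626 with no batch term, 4808 and 4891 with the block and no batch term, and 567 and 1588 without ONP replicate 7. In ONH against ONP they were 725 and 498, with 1481 and 1637 under the replicate block, 1264 and 1181 in batch 1 only, 1133 and 1161 with only the 2 groups, 1150 and 891 with DESeq2, 385 and 126 with all 26 libraries and 515 and 320 without the filter; leaving out ONH replicate 1, 3 or 5 or ONP replicate 1, 2, 4 or 6 left 409 to 586 higher and 192 to 305 lower.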

Other observations

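A further claudin outside the family described, Cldn9, was at a low level and uneven between retina IP libraries, with 0.214, 4.36, 4.50, 18.0, 0.807 and 1.36 CPM in the 6 libraries. Inputs held 0, 3.81, 0, 0, 0 and 0.721 CPM. Retina IP replicates 2, 3 and 4 and input replicate 2, the libraries high in Cldn10 and Cldn3, were the highest of their groups; Cldn9 was singled out after its values were seen.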
